A study of Mus musculus with 12 samples.

Results

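Among the leukocytes sorted from B16-F10 melanomas, 2496 cells carried the authors' label T cells but lay in clusters 0, 7, 8 or 9 of the authors' clustering, in which most cells were labelled NK cells. These members were chosen by that label and those cluster numbers alone, and made up 2496 of the 32188 cells labelled T cells, of 45477 cells in all. Tumours had been grown from B16-F10 cells, a mouse melanoma line, placed in the skin of B6.129S7-Rag1tm1Mom/J mice, which lack Rag1 and so form neither T nor B cells. All 6 mice received Pmel Thy1.1 CD8+ T cells by injection behind the eye, and the transgenic receptor of these cells recognises a melanocyte antigen. In the 3 CAL-101 mice the T cells had been cultured with CAL-101, the drug idelalisib, which blocks phosphoinositide 3-kinase delta, and in the 3 control mice they had not. Live CD45.2+ cells of each tumour were stained with a cocktail of barcoded antibodies and sequenced in droplets, which gave RNA and antibody counts for each cell. The labels give no age or sex of the mice.

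T cells and natural killer (NK) cells are lymphocytes that share much of their killing machinery and are told apart by their receptors. T cells carry a rearranged receptor held at the surface by the CD3 chains. NK cells carry germline-encoded receptors, among them NKp46 (Ncr1), NK1.1 (Klrb1c), the Ly49 family (Klra genes) and the CD94 family (Klrd1 and its partners), several of which signal through the adaptors Tyrobp and Fcer1g. NK cells are known to transcribe parts of the T cell receptor and CD3 genes at a low level. The transferred cells carry the Thy1.1 form of CD90, so that an antibody against the other form, CD90.2, marks cells of the host.

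The surface values rested on 4 antibodies of the panel, each read by counting a barcode of 15 bases. The barcodes are shown because each surface value of these proteins is a count of one of them, and the capitals mark the whole barcode.
CD8a: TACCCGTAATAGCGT
CD3: GTATGTCCGCTCGAT
CD49b: CGCGTTAGTAGAGTC
CD90.2: CCGATCAGCCGTTTA
The CD8a, CD49b and CD90.2 barcodes each differed from every other barcode of the panel at 7 or more positions, and the CD3 barcode at 6 or more. CD8a is the coreceptor of the transferred CD8+ T cells, CD3 belongs to the receptor complex, and CD49b (integrin alpha 2, encoded by Itga2) is a surface marker of mouse NK cells.

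The 6 libraries held 75716841 to 97933109 RNA UMIs (unique molecular identifiers, counts of single captured molecules) and 12748632 to 18237209 antibody UMIs. Of all cell barcodes, 249 occurred in more than 1 library, and 27 members had such a barcode. Neutrophils, with 414 cells, served as a cell type that should lack T and NK cell receptor RNA. Their median cell held 3175.5 RNA UMIs, and the same free RNA makes a larger share of a shallow cell than of a deep one. Neutrophil values are thus given for comparison, and the level of free RNA in the members was not measured. No doublet caller was run, the sources used here do not say whether doublets were removed, and the part of doublets in the results was not tested.

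Cluster 0 held 1264 of the members, cluster 8 held 597, cluster 9 held 476 and cluster 7 held 159. The T label took 14.5% of all cells of cluster 0 and 7.81% of cluster 7, but 42.1% of cluster 8 and 37.1% of cluster 9. The members thus came from clusters in which the label was rare and from others in which it was frequent.

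Of all T-labelled cells, the share that lay in the NK clusters was 9.58%, 2.23% and 3.55% in the CAL-101 mice and 8.03%, 16.8% and 9.86% in the control mice. The groups overlapped, because the first CAL-101 mouse lay between control mice. The means were 5.12% ± 3.92 in CAL-101 mice and 11.6% ± 4.62 in control mice (SD, n = 3 each), and the difference did not pass an exact 2-sided permutation test (p = 0.2, adjusted p = 0.6 over 6 shares, smallest possible p 0.1). The T label took 19.7% ± 3.71 in CAL-101 mice and 18.9% ± 2.22 in control mice of the cells of the NK clusters (exact permutation p = 0.8). Within the members, cluster 8 held 29.6% ± 4.15 in CAL-101 mice and 21.9% ± 4.78 in control mice, and cluster 0 held 46.3% ± 1.01 in CAL-101 mice and 51.7% ± 5.42 in control mice. Neither share passed the exact permutation test (p = 0.2 for cluster 8 and p = 0.3 for cluster 0, adjusted p = 0.6 and 0.6).

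**Figure D1:**
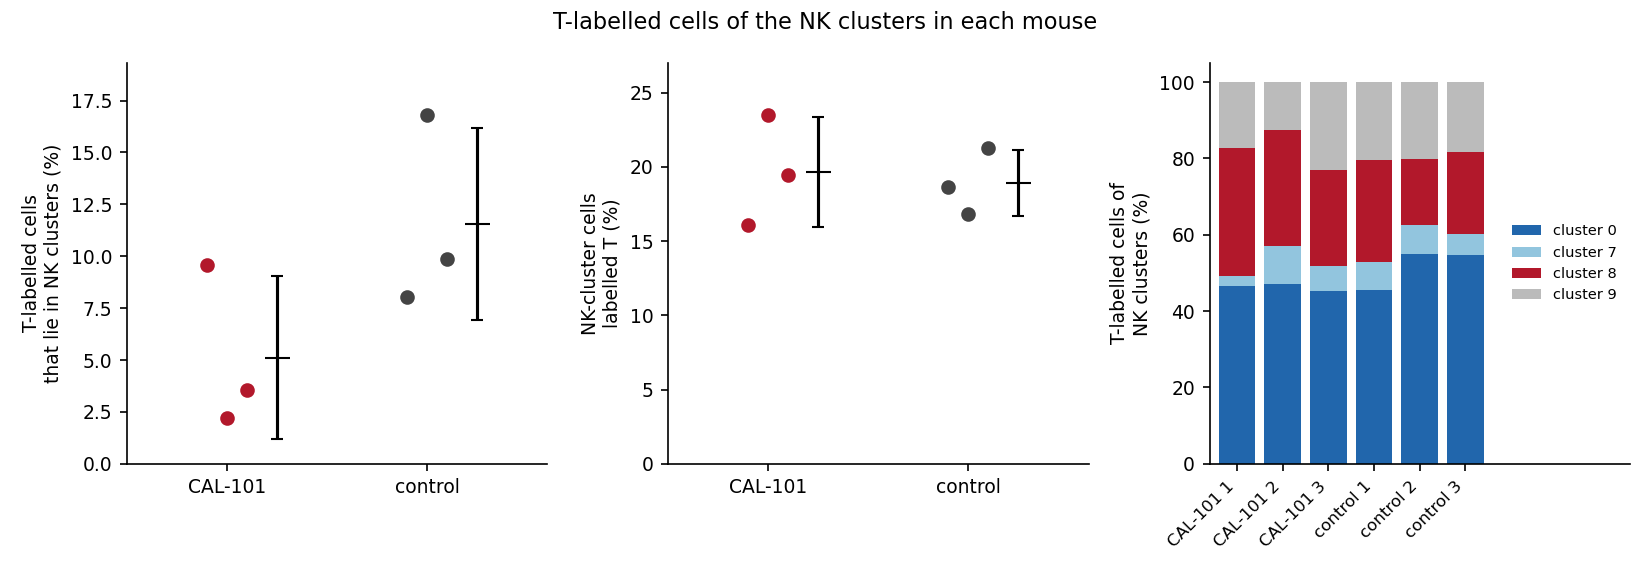
Percent of T-labelled cells that lay in the NK clusters (left) and percent of NK-cluster cells labelled T (middle), 1 point per mouse with the mean and SD as bars, and the makeup of the members by cluster in each mouse (right, stacked to 100%). CAL-101 and control points overlap in the left and middle panels, and cluster 8 takes 29.6% of members on average in CAL-101 mice and 21.9% in control mice.

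In depth the members lay near their NK-labelled neighbours as a whole, but not within each cluster. The median member held 6806.5 RNA UMIs and 1182.5 antibody UMIs. NK-labelled cells of the same clusters held 6969 and 969, and T-labelled cells of clusters 1 to 5 held 10631.5 and 1897.5. Over mice, the members' median minus that of NK-labelled cells was 171 RNA UMIs (higher in 3 of 6 mice, exact 2-sided sign-flip test p = 0.6875, adjusted p = 0.793 over 15 tests). For antibody UMIs it was 225 (higher in 6 of 6 mice, exact p = 0.03125, the smallest possible, adjusted p = 0.0938), which did not pass after adjustment.

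The deepest members lay in cluster 8 and the shallowest in cluster 9. In cluster 8 the median member held 20317 RNA UMIs and the median NK-labelled cell 17629, with a mean difference over mice of 3796 UMIs (higher in 5 of 6 mice, exact sign-flip p = 0.0625, adjusted p = 0.117). Antibody UMIs in cluster 8 differed by 1127 (higher in 6 of 6 mice, exact sign-flip p = 0.03125, adjusted p = 0.0938). Cluster 9 members had a median of 1973.5 RNA UMIs and 8.83% mitochondrial UMIs, and its NK-labelled cells 2137 and 8.27%. In cluster 0 the medians were 6373.5 RNA UMIs in members and 6269 in NK-labelled cells.

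RNA levels are given as CPM, that is, each gene's RNA UMIs summed over a class of cells in a mouse and scaled to a common library total. Since the labels and clusters may have been made from these genes, RNA differences between classes are described without a test. Cd3e, a signalling chain of the T cell receptor complex, stood at 172, 174 and 179 CPM in members of the CAL-101 mice and at 181, 120.1 and 145 CPM in members of the control mice. It averaged 162 ± 24.3 CPM in members, 18.9 ± 3.07 CPM in NK-labelled cells of the same clusters and 421 ± 32.5 CPM in T-labelled cells of clusters 1 to 5 (SD, n = 6 mice). The 3 classes did not overlap in Cd3e. Trbc2, a constant gene of the receptor beta chain, averaged 3619.9 ± 497 CPM in members, 631 ± 46.6 CPM in NK-labelled cells and 8961 ± 414 CPM in T-labelled cells of clusters 1 to 5.

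The NK receptor genes ran in the opposite order. Ncr1 stood at 153, 144 and 132 CPM in members of the CAL-101 mice and at 86.5, 111 and 94.9 CPM in members of the control mice. It averaged 120.2 ± 27.0 CPM in members, 199.8 ± 32.6 CPM in NK-labelled cells and 1.21 ± 0.864 CPM in T-labelled cells of clusters 1 to 5. Klrb1c averaged 236 ± 20.3 CPM in members, 342 ± 30.1 CPM in NK-labelled cells and 4.82 ± 3.53 CPM in T-labelled cells of clusters 1 to 5. Every mouse had more of both genes in its members than any mouse had in the T-labelled cells of clusters 1 to 5, where the highest values were 2.36 CPM of Ncr1 and 10.2 CPM of Klrb1c.

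The average hid a split between clusters. In cluster 0, Cd3e stood at 72.0, 40.7 and 39.5 CPM in members of the CAL-101 mice and at 38.7, 26.2 and 29.7 CPM in members of the control mice. Summed over mice it reached 37.9 CPM in cluster 0 members, against 18.4 CPM in NK-labelled cells of cluster 0 and 42.0 CPM in neutrophils. Neutrophils spanned 17.5 to 69.2 CPM over mice, a range that overlaps the cluster 0 members. The median neutrophil held 3175.5 RNA UMIs, the median cluster 0 member 6373.5 and its median NK-labelled neighbour 6269. The neutrophil range is therefore no measured level of free RNA for the cluster 0 members. Trbc2 summed to 1011 CPM in cluster 0 members, 659 CPM in their NK-labelled neighbours and 875 CPM in neutrophils. In these cells Ncr1 averaged 184 ± 58.3 CPM and Klrb1c 382 ± 15.3 CPM, against 212 ± 46.7 and 433 ± 26.5 CPM in NK-labelled cells of cluster 0. Of the T cell receptor and coreceptor list, 14 of 17 genes were higher in cluster 0 members than in NK-labelled cells of cluster 0 in each of 6 mice and 1 was lower (median log2 ratio 0.80). Of the NK cell list, 2 of 23 were higher and 12 lower (median -0.24). Over all 9609 genes, 503 were higher and 435 lower. All 17 T cell receptor genes were lower in cluster 0 members than in T-labelled cells of clusters 1 to 5 (median log2 ratio -2.71). Over all 10036 genes, 2609 were higher and 2930 lower. With the T cell receptor list standing between the classes, the cluster 0 members are called here by label and cluster, not as T cells.

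In cluster 8 the T cell genes stood well above the neutrophil level. Cd3e was at 239.9, 261 and 293 CPM in members of the CAL-101 mice and at 269.9, 236 and 269 CPM in members of the control mice. It averaged 262 ± 21.3 CPM in cluster 8 members and 26.5 ± 9.68 CPM in NK-labelled cells of cluster 8. Trbc2 averaged 5663 ± 419 CPM in these members and 684 ± 196 CPM in NK-labelled cells of the cluster. NK genes were lower than in NK-labelled cells but present, with Ncr1 at 83.6 ± 21.3 CPM in members and 171 ± 16.0 CPM in NK-labelled cells, and Klrb1c at 149 ± 19.3 CPM in members and 269 ± 44.6 CPM in NK-labelled cells.

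**Figure D2:**
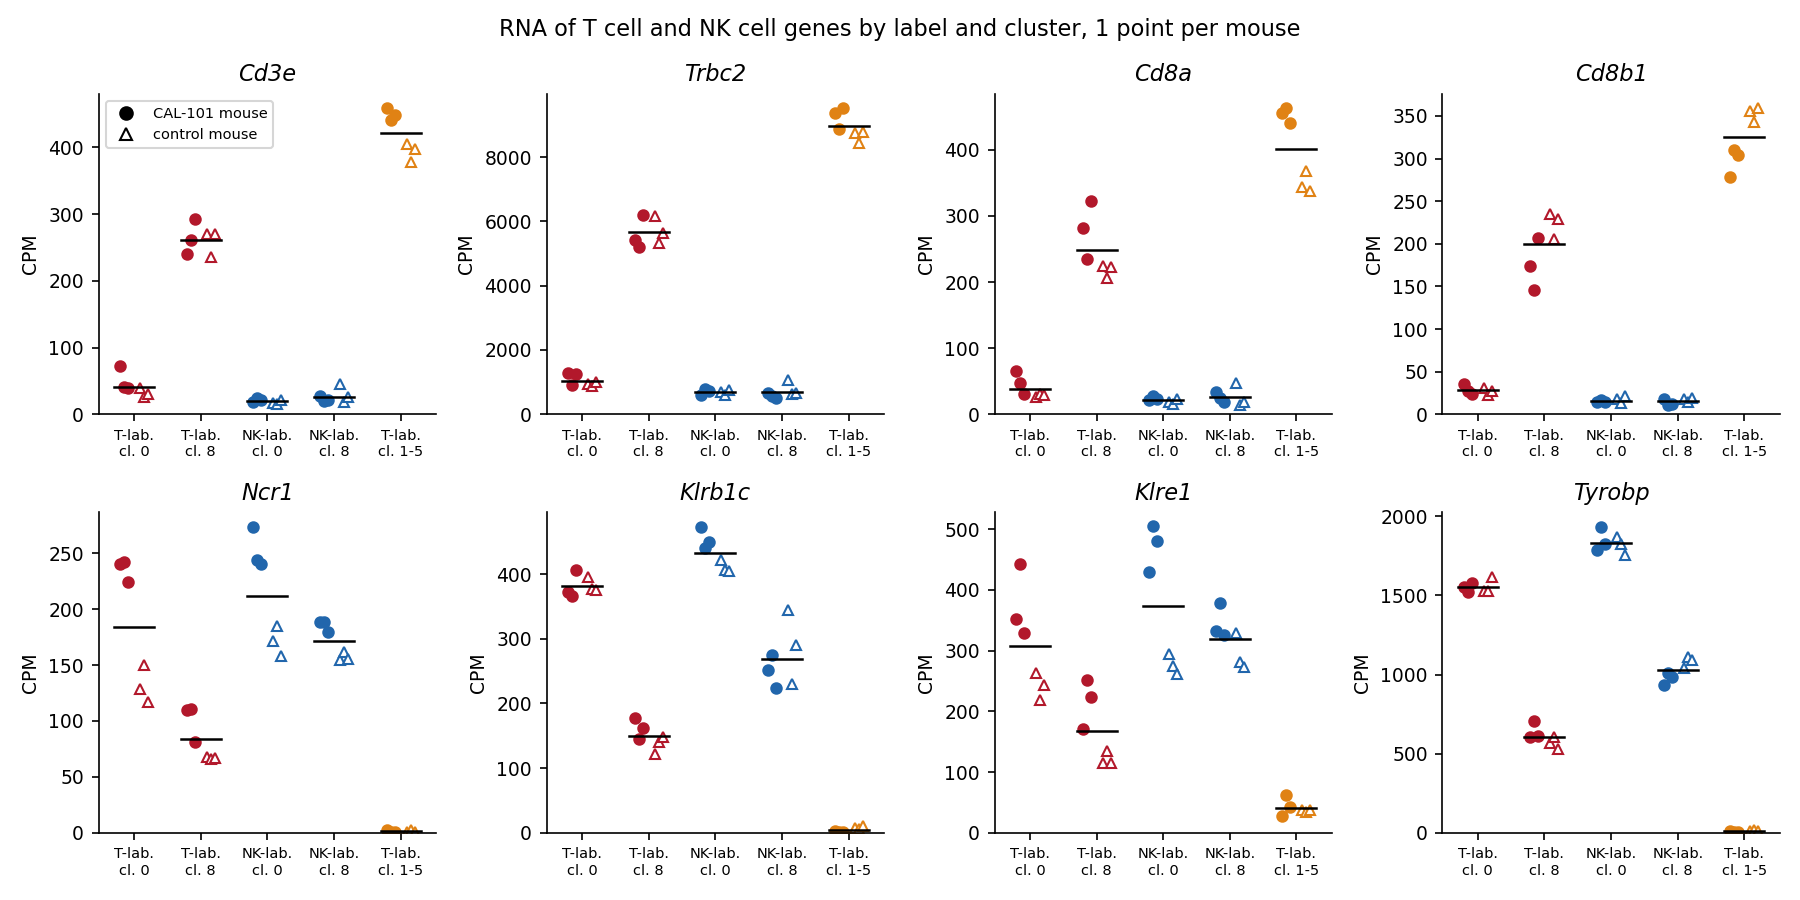
CPM per mouse (circles CAL-101, triangles control, line at the mean over mice) of T cell genes (top row) and NK cell genes (bottom row) in T-labelled and NK-labelled cells of clusters 0 and 8 and in T-labelled cells of clusters 1 to 5. Cd3e of the cluster 0 members lies near that of the NK-labelled cells, at 41.1 CPM on average, while that of the cluster 8 members lies at 262 CPM.

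To set genes on 1 scale, each member value was placed between the NK-labelled cells of the same clusters (0%) and the T-labelled cells of clusters 1 to 5 (100%) of the same mouse. Over all members, Cd3e lay at 35.5% ± 4.27, Cd3d at 38.2% ± 6.03, Trac, the receptor alpha chain constant gene, at 34.6% ± 5.54 and Trbc2 at 35.8% ± 4.97 of that distance (SD, n = 6). NK genes lay at like places, with Ncr1 at 40.5% ± 6.04, Klre1, a lectin-like NK receptor, at 40.0% ± 6.93 and Tyrobp at 40.7% ± 4.48. In cluster 0, Cd3e lay at 5.15% ± 3.60, Trbc2 at 4.20% ± 2.32 and Tyrobp at 15.1% ± 4.70. In cluster 8 the same genes lay at 59.8% ± 5.86, 60.2% ± 4.36 and 41.5% ± 8.17. Cd3e lay at 21.0% ± 5.77 in cluster 7 and at 1.70% ± 4.13 in cluster 9.

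Of the 18 genes of the T cell receptor and coreceptor list, 17 reached 5 CPM, and all of these were higher in members than in NK-labelled cells in each of 6 mice, with a median log2 ratio of 2.52. Over all 9772 genes at that level, 1701 were higher and 964 lower in each of 6 mice, with a median log2 ratio of 0.051. Cd8b1, the beta chain of the CD8 coreceptor, averaged 123 ± 18.4 CPM in members and 14.0 ± 2.79 CPM in NK-labelled cells. Of the NK cell list, 20 of 23 genes were lower in members in each of 6 mice and 1 was higher, with a median log2 ratio of -0.62. Gzma, a granzyme abundant in NK cells, averaged 3796 ± 657 CPM in members and 6838 ± 954 CPM in NK-labelled cells. Eomes, a transcription factor of NK cells and memory T cells, averaged 79.0 ± 11.8 CPM in members and 115 ± 10.8 CPM in NK-labelled cells.

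The adaptor genes and Thy1 completed the pattern. Fcer1g averaged 931 ± 54.8 CPM in members, 1559 ± 99.4 CPM in NK-labelled cells and 33.5 ± 18.0 CPM in T-labelled cells of clusters 1 to 5. Itga2, which encodes CD49b, averaged 53.7 ± 12.01 CPM in members, 81.9 ± 19.0 CPM in NK-labelled cells and 3.83 ± 1.64 CPM in T-labelled cells of clusters 1 to 5. Thy1, which encodes CD90, was lowest in T-labelled cells of clusters 1 to 5, with 240.3 ± 30.3 CPM in members, 318 ± 31.7 CPM in NK-labelled cells and 168 ± 15.1 CPM in those T cells.

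Against T-labelled cells of clusters 1 to 5, all 17 T cell receptor genes were lower in members (median log2 ratio -1.19), and 21 of 23 NK cell genes were higher (median log2 ratio 5.06). All 16 cell cycle genes were lower in members than in those T cells (median log2 ratio -1.12). Over all 9874 genes, 2497 were higher and 2744 lower. Of the ILC1 list, genes of the tissue-resident innate lymphocytes most like NK cells, 7 of 8 were higher in members than in NK-labelled cells and 1 was lower (median log2 ratio 1.12). Against T-labelled cells of clusters 1 to 5, however, 3 of these 8 were higher in members and 3 lower (median log2 ratio 0.31). In cluster 8 members 1 of 7 was higher than in those T cells and 3 were lower (median -0.19), beside 1512 higher and 1460 lower of all 9732 genes. Of 13 mitochondrially encoded genes, 12 were higher in members than in NK-labelled cells (median log2 ratio 0.34). Within cluster 0, 9 of 13 were higher (median 0.20), beside 503 of all 9609 genes. Within cluster 8, 3 of 13 were higher (median 0.11), beside 1544 of all 9828 genes.

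Summed markers of other cell types overlapped between the members and the classes beside them. The 6 neutrophil genes summed to 6.7 to 29.9 CPM in members, 2.6 to 30.2 CPM in NK-labelled cells and 38991 to 108828 CPM in neutrophils. The 11 macrophage and monocyte genes summed to 476 to 729.8 CPM in members, 417 to 509 CPM in NK-labelled cells and 537 to 898 CPM in T-labelled cells of clusters 1 to 5. In members most of this sum was Ly6c2 (means of 432 CPM in CAL-101 and 377 CPM in control mice) and Ccr2 (167 and 181 CPM). Cd68 averaged 5.74 and 7.46 CPM there, so that the sum is not read as a level of macrophage RNA. The 6 B cell genes reached at most 3.8 CPM in members, with 1 of them at 0. Of the gamma delta and innate-like T cell list, 1 of 4 genes at 5 CPM or more were higher in members than in NK-labelled cells in each of 6 mice and 0 lower (median log2 ratio 0.19). The part of other cells in the results was not tested.

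The genes with the largest ratios between members and NK-labelled cells were led by T cell genes. Themis, a regulator of T cell receptor signalling, averaged 469.8 ± 92.7 CPM in members, 30.8 ± 8.63 CPM in NK-labelled cells and 1215 ± 161 CPM in T-labelled cells of clusters 1 to 5. Slamf1, Cd5, Fam169b, Trbv14, Adam19, St6gal1 and Cd8b1 followed, with log2 ratios from 3.14 to 3.79. Of these, Adam19 and St6gal1 summed to 52.3 and 24.6 CPM in neutrophils, above the members' means of 23.3 ± 10.2 and 20.1 ± 10.2 CPM. Trbv14, the beta chain variable segment of the Pmel receptor, averaged 52.4 ± 8.41 CPM in members, 5.23 ± 1.04 CPM in NK-labelled cells and 134 ± 15.1 CPM in T-labelled cells of clusters 1 to 5. The largest ratios downward were those of Galnt18, Gpr141, Mef2c, Cd55, Dixdc1, Tmsb15a, Klrg1 and Synpo2, from -1.997 to -1.096 on the log2 scale. Klrg1, an inhibitory receptor of mature NK cells, averaged 71.1 ± 18.2 CPM in members and 171 ± 23.9 CPM in NK-labelled cells.

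Within cluster 0 the ratios were smaller and named other genes. Il7r, the interleukin-7 receptor alpha chain, averaged 88.5 ± 27.1 CPM in members, 19.2 ± 7.32 CPM in NK-labelled cells of cluster 0 and 107 ± 26.7 CPM in T-labelled cells of clusters 1 to 5, and summed to 20.7 CPM in neutrophils. Tmem176a and Tmem176b, membrane proteins on the ILC1 list, averaged 28.1 ± 4.12 and 36.5 ± 6.35 CPM in cluster 0 members, against 6.50 ± 3.22 and 10.3 ± 4.19 CPM in NK-labelled cells there. T-labelled cells of clusters 1 to 5 averaged 6.66 ± 2.34 and 8.80 ± 2.87 CPM of these genes, so that both were highest in the cluster 0 members. Themis averaged 114 ± 57.0 CPM in cluster 0 members and 16.96 ± 4.62 CPM in NK-labelled cells, and summed to 40.7 CPM in neutrophils. Inpp4b, a phosphoinositide phosphatase, averaged 383 ± 129.6 CPM in cluster 0 members and 127 ± 28.2 CPM in NK-labelled cells. Syk, a tyrosine kinase of NK receptor signalling, averaged 55.5 ± 10.8 CPM in cluster 0 members and 131 ± 5.67 CPM in NK-labelled cells. Of the ILC1 list, 6 of 8 genes were higher in cluster 0 members in each of 6 mice (median log2 ratio 1.70), as were 503 of all 9609 genes (median 0.012). Against T-labelled cells of clusters 1 to 5, 3 of the 8 were higher in cluster 0 members and 3 lower (median log2 ratio 0.44), beside 2609 higher and 2930 lower of all 10036 genes.

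Within cluster 8 the members held more transcripts of exhaustion genes and fewer of the cell cycle than their NK-labelled neighbours. Pdcd1, which encodes the inhibitory receptor PD-1, averaged 139.5 ± 12.4 CPM in members, 12.4 ± 5.29 CPM in NK-labelled cells of cluster 8 and 210.2 ± 14.4 CPM in T-labelled cells of clusters 1 to 5. Of 11 exhaustion genes, 9 were higher and 1 lower in members in each of 6 mice (median log2 ratio 0.89), beside 1544 higher and 1353 lower of all 9828 genes. All 16 cell cycle genes were lower in cluster 8 members than in NK-labelled cells of that cluster (median log2 ratio -1.23). Against T-labelled cells of clusters 1 to 5, 2 of 11 exhaustion genes were higher and 4 lower in cluster 8 members (median -0.23). Of the cell cycle genes 0 of 16 were higher and 14 lower (median -0.46), beside 1512 higher and 1460 lower of all 9732 genes. Spp1, the secreted phosphoprotein osteopontin, averaged 572 ± 223 CPM in cluster 8 members and 1929 ± 389 CPM in its NK-labelled cells.

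Counts of cells need equal depth, so each cell was thinned to 1500 RNA UMIs, which left out 140 members and 193 NK-labelled cells. Of 2356 members, 729 (30.9%, 95% Wilson interval 29.1 to 32.8, counting error only) held a UMI of Cd3e or Trbc2 together with a UMI of Ncr1 or Klrb1c. The share was 34.0% in NK-labelled cells, 0.944% in T-labelled cells of clusters 1 to 5 and 0.5% in neutrophils. It was 35.3% in members and 38.0% in NK-labelled cells of cluster 0, and 24.0% in members and 21.5% in NK-labelled cells of cluster 8. The T cell side of this count came mostly from Trbc2, held by 77.1% of members, 60.7% of NK-labelled cells and 74.8% of neutrophils. Cd3e was held by 29.1% of cluster 8 members, 4.12% of cluster 0 members, 3.18% of NK-labelled cells, 42.6% of T-labelled cells of clusters 1 to 5 and 6.25% of neutrophils. In cluster 0 members the Cd3e share lay below that of neutrophils, as the summed CPM did, so that no expression is read from the share, although their Cd3e CPM was above that of NK-labelled cells of cluster 0 in each of 6 mice. The Trbc2 share of cluster 0 members (68.6%) also lay below that of neutrophils although their Trbc2 CPM was higher, so that no order is read from it, and the joint share does not show T cell expression. The median neutrophil held 3175.5 RNA UMIs before thinning. Thinning keeps the fraction of free RNA in each cell, so that neutrophil shares set no free-RNA level for deeper cells. Without thinning, 80.0% of members and 87.5% of NK-labelled cells held both.

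No source used here says whether the antibodies entered the authors' labels, so that tests of antibodies between classes may share that input. Sums of antibody UMIs by mouse and class were tested over the whole panel with edgeR's quasi-likelihood test, with the mouse as a block. Of these, 66 (64.7%) passed an adjusted p of 0.05 between members and NK-labelled cells, 24 higher (23.5%) and 42 lower (41.2%). Between members and T-labelled cells of clusters 1 to 5, 51 (50%) passed, 25 higher (24.5%) and 26 lower (25.5%).

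The CD8a antibody took 3.69%, 2.96% and 2.67% of antibody UMIs in members of the CAL-101 mice and 3.19%, 2.49% and 2.35% in members of the control mice. NK-labelled cells had 0.281% to 0.596% and T-labelled cells of clusters 1 to 5 had 6.20% to 8.35%, so that the classes did not overlap. The members exceeded NK-labelled cells by 2.75 ± 0.11 on the log2 scale (SE, edgeR adjusted p = 9.47e-07, 6 of 6 mice) and differed from T-labelled cells of clusters 1 to 5 by -1.43 ± 0.09 (edgeR adjusted p = 1.44e-05). CD8b (3.05), CD5 (2.47), the T cell receptor beta chain (1.33), CD27 (1.26) and CD25 (1.23) also rose against NK-labelled cells. CD5 is a brake on receptor signalling, CD27 a costimulatory receptor and CD25 a chain of the interleukin-2 receptor.

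The CD49b antibody ran the other way. It took 3.26%, 2.96% and 3.59% of antibody UMIs in members of the CAL-101 mice and 3.85%, 3.87% and 4.53% in members of the control mice, against 4.80% to 6.46% in NK-labelled cells and 0.151% to 0.422% in T-labelled cells of clusters 1 to 5. It fell by 0.50 ± 0.06 on the log2 scale against NK-labelled cells (edgeR adjusted p = 0.000376) and rose by 3.75 ± 0.21 against T-labelled cells of clusters 1 to 5 (edgeR adjusted p = 8.37e-06). The largest decreases against NK-labelled cells were those of CD55 (-1.20), KLRG1 (-1.04), CD45R_B220 (-0.81), Ly.49A (-0.75), Ly49D (-0.68) and CD31 (-0.58). KLRG1 and CD55 also stood among the genes with the largest RNA ratios downward. In cluster 0 alone CD55 did not pass (-0.16, edgeR adjusted p = 0.124), KLRG1 and CD45R_B220 differed by -0.31 and -0.19, and CD31 changed sign (0.14). In cluster 8 alone CD55, KLRG1 and CD45R_B220 differed by -1.75, -1.88 and -1.61. The classes also differed in makeup, with 1877 of 10969 NK-labelled cells but 159 of 2496 members in cluster 7. The part of this makeup in the differences was not tested. NK.1.1 averaged 0.576% ± 0.0935 in members and 0.793% ± 0.109 in NK-labelled cells (log2 difference -0.40, edgeR adjusted p = 0.000986), and in cluster 0 alone the difference was -0.0082 (edgeR adjusted p = 0.9). CD4, the coreceptor of helper T cells, differed by -0.092 from NK-labelled cells (edgeR adjusted p = 0.308) and by 0.069 from T-labelled cells of clusters 1 to 5 (edgeR adjusted p = 0.398). The antibodies against the receptor segments Vg2 and Vb8.1_8.2 each fell by 0.20 against NK-labelled cells (edgeR adjusted p = 0.000778 and 0.00338), and the 7 isotype controls, which bind no known target, differed by -0.23 to 0.33 from them, a range that holds both.

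The host antibody CD90.2 took 2.15%, 1.83% and 2.03% of antibody UMIs in members of the CAL-101 mice and 1.94%, 2.99% and 1.91% in members of the control mice. NK-labelled cells had 2.74% to 4.21% and T-labelled cells of clusters 1 to 5 had 0.0408% to 0.0929%. Against those T cells the members were higher by 5.03 ± 0.15 log2 units (edgeR adjusted p = 3.91e-07), the largest increase of the panel. Against NK-labelled cells CD90.2 fell by 0.48 ± 0.04 (edgeR adjusted p = 5.39e-05), with opposite differences in clusters 0 and 8. In cluster 0 alone it rose by 0.44 ± 0.07 in members (edgeR adjusted p = 0.00249), with means of 2.55% ± 0.259 in members and 1.99% ± 0.280 in NK-labelled cells. In cluster 8 alone it fell by 1.43 ± 0.09 (edgeR adjusted p = 2.01e-05), with means of 1.28% ± 0.349 in members and 3.61% ± 0.736 in NK-labelled cells. Without the tenth of cells with most RNA UMIs, the difference over all clusters was -0.079 (edgeR adjusted p = 0.179).

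The CD3 antibody separated the classes poorly. It averaged 0.564% ± 0.454 in members, 0.349% ± 0.0871 in NK-labelled cells, 0.489% ± 0.0747 in T-labelled cells of clusters 1 to 5 and 0.404% ± 0.129 in neutrophils. The difference between members and NK-labelled cells was 0.52 ± 0.24 on the log2 scale (edgeR adjusted p = 0.101, higher in 6 of 6 mice). The third CAL-101 mouse stood apart, at 1.48% where the other mice had 0.299% to 0.489%, and without it the difference between members and NK-labelled cells was 0.25 (edgeR adjusted p = 0.00443). In the members of the third CAL-101 mouse the isotype control antibody HTK888 and the CD1d antibody took 0.225% and 0.698% of antibody UMIs, against 0.0172% to 0.0297% and 0.195% to 0.276% in the other 5 mice, both named after their values were seen. Their source was not tested. Against T-labelled cells of clusters 1 to 5 the difference for CD3 was -0.18 (edgeR adjusted p = 0.54), and -0.45 without that mouse (edgeR adjusted p = 0.000978). Leaving out cells with over 20000 antibody UMIs gave 0.32 for CD3 against NK-labelled cells (edgeR adjusted p = 0.000801). Only 1 of the cells left out was a member, and it lay in cluster 8 of the third CAL-101 mouse. Without these cells HTK888 and CD1d differed from NK-labelled cells by -0.097 and 0.14 (edgeR adjusted p = 0.304 and 0.0167).

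Cell by cell, members of clusters 0 and 8 differed in their CD8a antibody. Its median was 0.277% of a cell's antibody UMIs in cluster 0 members and 0.257% in NK-labelled cells of that cluster, with 95th percentiles of 3.07% and 0.810%. In cluster 8 the median was 4.62% in members and 0.187% in NK-labelled cells, against 6.70% in T-labelled cells of clusters 1 to 5. The 95th percentile of the NK-labelled cells of cluster 8 was 4.67%, so that some of them carried CD8a as well. In clusters 7 and 9 the members' medians were 0.292% and 0.282%, with 95th percentiles of 5.75% and 2.12%. The median cluster 8 member thus lay nearer to those T cells than to its NK-labelled neighbours, while the median cluster 0 member lay beside the NK-labelled cells. The median CD49b antibody was 2.39% in cluster 8 members, 4.04% in NK-labelled cells of cluster 8 and 0.132% in T-labelled cells of clusters 1 to 5. The median CD90.2 antibody was 0.839% in cluster 8 members, 3.34% in its NK-labelled cells and 0.0135% in T-labelled cells of clusters 1 to 5.

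**Figure D3:**
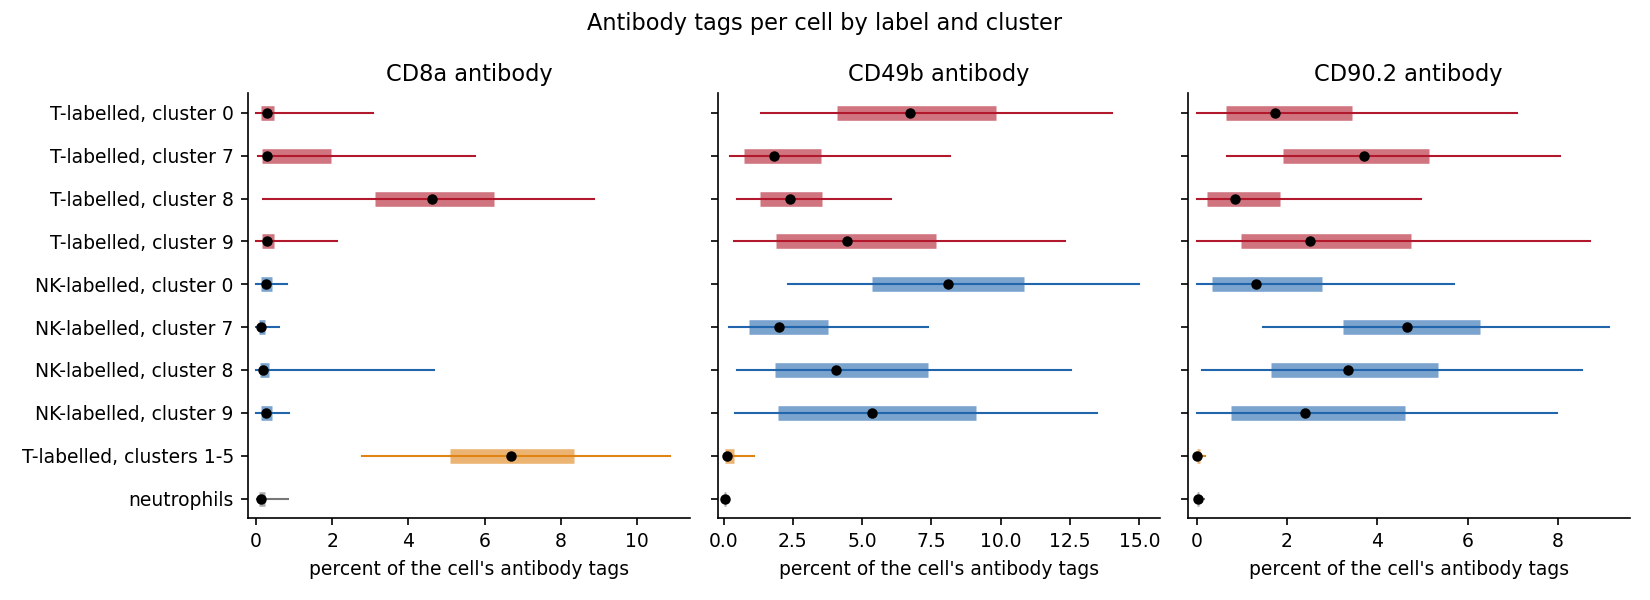
CD8a, CD49b and CD90.2 antibodies in percent of each cell's antibody UMIs, by label and cluster, with the median (point), the middle 50% of cells (thick bar) and the 5th to 95th percentiles (thin line). The members of cluster 8 stand apart from the other members in CD8a, with a median of 4.62% against 0.277% in cluster 0.

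A cell was called CD8a-high where its CD8a share passed the 10th percentile of the T-labelled cells of clusters 1 to 5 of its mouse. Of the members, 480 were CD8a-high, of which 392 lay in cluster 8 and 51 in cluster 0. They had a median of 19445 RNA UMIs and 3065.5 antibody UMIs, and the 2016 CD8a-low members 5759.5 and 1004.5. Within cluster 8 the medians were 20358 RNA UMIs in CD8a-high and 20191 in CD8a-low members, and in cluster 0 10260 and 6189. The limit crossed no gap, as 201 members (8.05%) lay within 20% of it. CD8a-high cells made up 22.2% ± 1.27 of members in CAL-101 mice and 18.5% ± 4.97 in control mice (exact 2-sided permutation p = 0.3).

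Cells high in both antibodies were rare at the stricter limits and frequent in cluster 8 at the looser ones. The limits were percentiles of CD8a in T-labelled cells of clusters 1 to 5 and of CD49b in NK-labelled cells. At the 25th percentile, 51 members (2.04%) passed both, against 7 NK-labelled cells (0.0638%) and 16 T-labelled cells of clusters 1 to 5 (0.0566%). Cluster 8 held 39 of these cells, or 6.53% of its members. There 32.5% of members passed for CD8a alone, 18.9% for CD49b alone and 42.0% for neither, while in cluster 0 79.3% of members passed for CD49b alone. At the 10th percentile, 13.3% of all members and 45.9% of cluster 8 members passed both, against 0.556% of NK-labelled cells and 2.22% of T-labelled cells of clusters 1 to 5. A high share of 1 antibody lowers the shares of the others in that cell. On antibody UMIs per cell at the 25th percentile, 16.7% of all members and 56.8% of cluster 8 members passed both, against 0.839% of NK-labelled cells, 5.73% of NK-labelled cells of cluster 8 and 1.81% of T-labelled cells of clusters 1 to 5. The depths behind these counts differed. Cluster 8 members held a median of 2911 antibody UMIs, NK-labelled cells 969, NK-labelled cells of cluster 8 1817.5 and T-labelled cells of clusters 1 to 5 1897.5, and no value was thinned to equal depth.

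Whether CAL-101 treatment of the transferred cells went with a change in the members was tested on RNA UMIs summed per mouse (1791498 to 6985142 UMIs), with edgeR's quasi-likelihood test over 11432 genes. Of these, 364 (3.18%) passed an adjusted p of 0.05, 205 higher (1.79%) and 159 lower (1.39%) in CAL-101 mice. The groups did not overlap in 22.5% of the genes tested. Without 1 mouse the count ranged from 105 without the first CAL-101 mouse to 474 without the second. The members are a mixture, with the cluster shares by group given above, and in summed counts fewer cells of a kind and less RNA per cell cannot be told apart. Cluster 0 alone gave 96 genes, cluster 8 alone 202 and the CD8a-low members 151.

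Tox, which encodes a regulator of T cell exhaustion, stood at 603, 300.2 and 469 CPM in members of the CAL-101 mice and at 165, 188 and 156 CPM in members of the control mice. The groups did not overlap, and Tox rose by 1.38 ± 0.17 on the log2 scale (SE, edgeR adjusted p = 0.000508). The difference was 0.94 in cluster 0 alone (edgeR adjusted p = 0.0306) and 1.68 in cluster 8 alone (edgeR adjusted p = 4.14e-05). Ikzf2, which encodes the transcription factor Helios, averaged 502 ± 84.5 CPM in CAL-101 mice and 234 ± 29.3 CPM in control mice and rose by 1.04 ± 0.13 (edgeR adjusted p = 0.000508). Bcl11b, a transcription factor of T cell identity, averaged 81.0 ± 13.4 CPM in CAL-101 mice and 40.4 ± 10.4 CPM in control mice and rose by 0.98 ± 0.16 (edgeR adjusted p = 0.00397). In cluster 0 alone its difference was 0.96 and did not pass (edgeR adjusted p = 0.0612). Cd5 averaged 52.1 ± 5.61 CPM in CAL-101 mice and 24.0 ± 5.78 CPM in control mice and rose by 1.06 ± 0.16 (edgeR adjusted p = 0.00186).

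The other large increases were those of Tcrg-C4 (1.41 on the log2 scale), a gamma chain constant gene, Trerf1 (1.39), a zinc finger regulator of transcription, St6gal1 (1.34), a sialyltransferase, Tnfsf11 (1.28), the cytokine RANKL, Dnah8 (1.09), a dynein heavy chain, and the mitotic genes Hmmr (1.07) and Cenpf (1.06). In cluster 0 alone Trerf1 (0.61), St6gal1 (1.17) and Dnah8 (1.17) did not pass (edgeR adjusted p = 0.308, 0.236 and 0.0541). Tnfsf11 did not pass in CD8a-low members (1.02, edgeR adjusted p = 0.0921), nor Hmmr without the tenth of cells with most RNA UMIs (edgeR adjusted p = 0.0676). Tcrg-C4 stood at 39.2, 34.7 and 26.2 CPM in members of the CAL-101 mice and at 13.5, 12.3 and 11.5 CPM in members of the control mice. Its groups did not overlap, but in cluster 0 alone the difference was 0.59 (edgeR adjusted p = 0.396), and in cluster 8 alone 1.62 (edgeR adjusted p = 0.000188). The gamma constant genes resemble each other, so that reads may be split among them.

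Among the lower genes, Ccr7, the chemokine receptor of lymph node homing, stood at 55.4, 19.7 and 51.4 CPM in members of the CAL-101 mice and at 105, 195 and 92.3 CPM in members of the control mice. It fell by 1.63 ± 0.28 on the log2 scale (edgeR adjusted p = 0.00566), with no overlap, but did not pass in cluster 0 alone (-1.02, edgeR adjusted p = 0.152) or by DESeq2 (adjusted p = 0.052). Plcl1, a phospholipase C-like protein, fell by 1.80 ± 0.19 (edgeR adjusted p = 0.000225), but in CD8a-low members the difference was -1.0002 (edgeR adjusted p = 0.153). The interferon-induced membrane proteins Ifitm2 and Ifitm3 fell by 1.63 ± 0.28 and 1.37 ± 0.18 (edgeR adjusted p = 0.00517 and 0.000939), Ifitm2 without passing by DESeq2 (adjusted p = 0.0568). The macrophage growth factor gene Csf1 (-1.28), the endocytic scaffold gene Itsn1 (-1.08), the potassium channel gene Kcnk10 (-1.02) and the DNA polymerase gene Poln (-0.99) completed the 8 largest decreases. In cluster 0 alone Csf1 (-0.51), Itsn1 (-0.50) and Poln (-0.95) did not pass (edgeR adjusted p = 0.75, 0.226 and 0.0549), and Poln did not pass without the first CAL-101 mouse (edgeR adjusted p = 0.0547). Ccl5, a chemokine of activated T and NK cells, averaged 2337 ± 366 CPM in CAL-101 mice and 4021 ± 660.3 CPM in control mice and fell by 0.84 ± 0.12 (edgeR adjusted p = 0.00169).

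**Figure D4:**
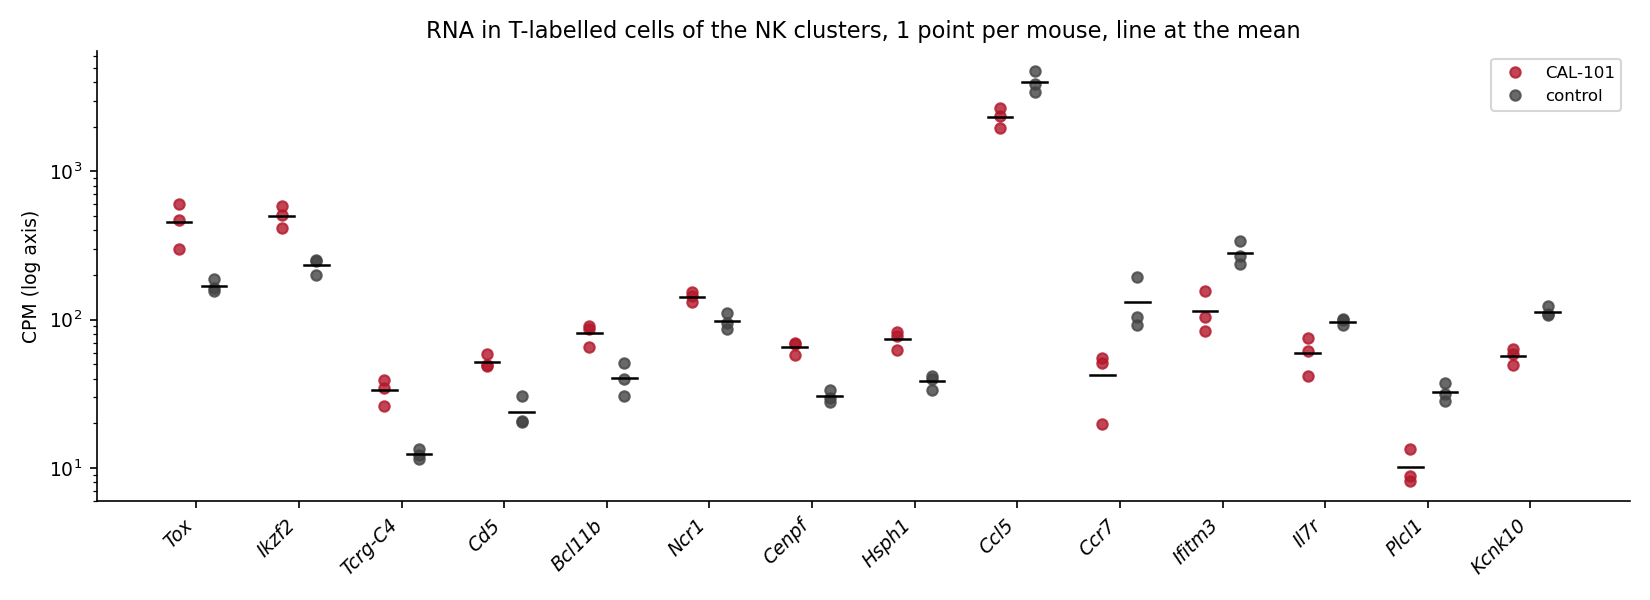
CPM (log axis) in the members of each mouse for 14 of the named genes, CAL-101 mice left and control mice right of each gene name, with a line at the mean. The CAL-101 points of Tox (300.2 to 603 CPM) lie above the control points, and those of Ccr7 (19.7 to 55.4 CPM) lie below them.

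Of the 4 marker genes of the classes, 1 passed. Ncr1 averaged 143 ± 10.8 CPM in CAL-101 mice and 97.5 ± 12.5 CPM in control mice and rose by 0.50 ± 0.10 on the log2 scale (edgeR adjusted p = 0.0175). It did not pass without the first CAL-101, the first control or the third control mouse (edgeR adjusted p = 0.102, 0.08 and 0.0937). It passed in cluster 0 alone (0.79), in cluster 8 alone (0.55) and in CD8a-low members (0.55, edgeR adjusted p = 0.00221, 0.0411 and 0.0331). Cd3e averaged 175 ± 3.45 CPM in CAL-101 mice and 149 ± 30.7 CPM in control mice (0.18 ± 0.12, edgeR adjusted p = 0.497). The Cd3e difference was 0.82 in cluster 0 alone and -0.034 in cluster 8 alone, and passed in neither (edgeR adjusted p = 0.0749 and 0.941). Trbc2 differed by 0.12 ± 0.11 (edgeR adjusted p = 0.62) and Klrb1c by -0.12 ± 0.10 (edgeR adjusted p = 0.583). Cd8a averaged 190.0 ± 11.6 CPM in CAL-101 mice and 126 ± 19.8 CPM in control mice and rose by 0.55 ± 0.11 (edgeR adjusted p = 0.0129). The Cd8a difference was 0.77 in cluster 0 alone and 0.30 in cluster 8 alone, and passed in neither (edgeR adjusted p = 0.0909 and 0.222). Nor did it pass without the first CAL-101, the third CAL-101 or the third control mouse (edgeR adjusted p = 0.0714, 0.0515 and 0.0862). Gzma averaged 3445 ± 684 CPM in CAL-101 mice and 4146 ± 493 CPM in control mice (-0.32, edgeR adjusted p = 0.193). Tcf7, a transcription factor of progenitor T cells, averaged 72.0 ± 20.1 CPM in CAL-101 mice and 48.6 ± 11.1 CPM in control mice (0.51, edgeR adjusted p = 0.135).

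By list, cell cycle genes passed most often. Of 16 tested, 12 rose in CAL-101 mice and 0 fell, among them Cenpf, Ccnb2 and Pclaf, with a median log2 difference of 0.66 against -0.00307 over all genes. Ccnb2, a mitotic cyclin, averaged 50.2 ± 2.31 CPM in CAL-101 mice and 25.3 ± 2.66 CPM in control mice and rose by 0.92 ± 0.12 (edgeR adjusted p = 0.000939). In cluster 0 alone 1 of 12 tested rose, where Ccnb2 had a difference of -0.29 (edgeR adjusted p = 0.878). In cluster 8 alone 6 of 16 rose, and without the tenth of cells with most RNA UMIs 5 of 16. In NK-labelled cells 13 of 16 rose, and in T-labelled cells of clusters 1 to 5 12 of 16.

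Of 17 T cell receptor and coreceptor genes tested, 4 rose (Cd8a, Bcl11b, Cd5 and, named after its value was seen, Ubash3a) and 0 fell, with a median log2 difference of 0.12. Without the first CAL-101, the third CAL-101 or the third control mouse, and in cluster 0, cluster 8 or CD8a-low members alone, 2 of 17 passed. Of 23 NK cell genes, 2 rose (Klre1 and Ncr1) and 0 fell, with a median of -0.035. Klre1 averaged 261 ± 39.7 CPM in CAL-101 mice and 175 ± 10.5 CPM in control mice (edgeR adjusted p = 0.0207), and did not pass without the first or the third control mouse (edgeR adjusted p = 0.0866 and 0.0869), and 0 of 23 rose by edgeR when either of these mice was left out. Of 11 progenitor and memory genes, Slamf6 (1.16) and Id3 (1.86) rose, and Ccr7, Lef1 (-0.56) and Bach2 (-0.41) fell, Lef1 and Bach2 being named after their values were seen. Without the first CAL-101 mouse Slamf6 and Id3 did not pass (edgeR adjusted p = 0.0885 and 0.178).

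Of 8 ILC1 genes, Il7r and Tmem176b (-0.64 on the log2 scale) fell and 0 rose, but 0 of 8 passed by edgeR in cluster 0 alone, without the first CAL-101 mouse or without the third control mouse. Il7r stood at 41.8, 75.6 and 61.4 CPM in members of the CAL-101 mice and at 99.4, 91.5 and 101 CPM in members of the control mice, and fell by 0.82 ± 0.16 (edgeR adjusted p = 0.0113). It did not pass without the first CAL-101 or the third control mouse (edgeR adjusted p = 0.0578 and 0.0512) or in cluster 0 alone (-0.73, edgeR adjusted p = 0.0725). Tmem176b did not pass without any 1 of the 6 mice or by DESeq2 (adjusted p = 0.0684), and differed by -0.20 in cluster 0 alone and by -0.48 in cluster 8 alone (edgeR adjusted p = 0.751 and 0.506). Of 11 stress genes the chaperone genes Hsph1 (0.92), Hspa1a (0.90) and Hspa1b (1.28) rose by edgeR, and 1 of 11 by DESeq2. Without the third CAL-101 mouse 1 of 11 passed. In cluster 8 alone Hspa1a (0.93) and Hspa1b (0.94) did not pass (edgeR adjusted p = 0.382 and 0.331). Hspa1b stood at 58.5, 26.9 and 70.3 CPM in members of the CAL-101 mice and at 22.3, 14.0 and 27.1 CPM in members of the control mice, and the groups overlapped.

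Of 11 type I interferon genes Isg15 (0.50) and Usp18 (0.80) rose, but 0 passed by edgeR in cluster 0 alone and 1 without the third control or the third CAL-101 mouse. Of 17 effector genes Ccl5 fell and 0 rose. The count moved to 1 higher and 4 lower in cluster 0 alone, 0 higher and 4 lower without the second CAL-101 mouse, and 3 higher and 2 lower without the tenth of cells with most RNA UMIs. Of 11 exhaustion genes Tox rose and 0 fell, and in cluster 0 alone 2 rose. Of 5 gamma delta genes Tcrg-C4 rose and of 3 CD4 and regulatory T cell genes Ikzf2 rose. Of 13 mitochondrially encoded genes 0 passed by edgeR and 2 by DESeq2, with 6 higher and 1 lower at an unadjusted p below 0.05 (median log2 difference 0.19). By edgeR 5 of 13 were higher without the second CAL-101 mouse, and 5 without the second control mouse. Of the macrophage, neutrophil, dendritic cell and stromal lists, 3, 1, 5 and 1 genes were tested and 0 passed by edgeR. The neutrophil gene passed by DESeq2 and was lower at an unadjusted p below 0.05, and the others did neither. Summed macrophage genes, mostly Ly6c2 and Ccr2, stood at 526 to 729.8 CPM in members of the CAL-101 mice and 476 to 664 CPM in members of the control mice. Of the B cell, melanocyte and red cell lists 0 genes passed the filter on low counts.

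In NK-labelled cells of the same clusters, 595 of 13832 genes (4.3%) passed between CAL-101 and control mice, 2.54% higher and 1.76% lower. In T-labelled cells of clusters 1 to 5, 2853 of 16445 (17.3%) passed, 8.42% higher and 8.93% lower. The classes share their libraries but not their cells, and each has its own values. In NK-labelled cells Hsph1 (0.94), Hspa1a (1.38), Hspa1b (1.33), Klre1 (0.51) and Ncr1 (0.37) also rose (edgeR adjusted p at most 0.0334). Il7r (-1.11) and Ifitm3 (-1.02) also fell there (edgeR adjusted p = 0.00658 and 0.0264). Cd8a (0.32), Bcl11b (0.77), Cd5 (0.76) and Ccl5 (-0.57) did not pass there (edgeR adjusted p = 0.251, 0.0643, 0.085 and 0.0757). Tox differed by 1.38 in members, by 0.38 in NK-labelled cells (edgeR adjusted p = 0.063) and by 1.99 in T-labelled cells of clusters 1 to 5 (edgeR adjusted p = 0.000246). Gzma, which did not pass in members or NK-labelled cells, averaged 42.1 ± 22.6 CPM in CAL-101 mice and 855 ± 90.1 CPM in control mice in T-labelled cells of clusters 1 to 5 and fell by 4.40 there (edgeR adjusted p = 0.000237). Kcnk10 differed by -1.02 in members, -0.49 in NK-labelled cells (edgeR adjusted p = 0.0139) and -2.70 in T-labelled cells of clusters 1 to 5 (edgeR adjusted p = 0.000167).

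The difference between the effects was itself tested by limma, on log2 CPM of one class minus that of the other in each mouse. Between members and NK-labelled cells 0 of 11432 genes passed, with 646 at an unadjusted p below 0.05 and a smallest adjusted p of 0.797, while an edgeR interaction fit gave 6 genes, Tox (0.99) and Ifitm2 (-0.97) among them, and 656 at an unadjusted p below 0.05. Between members and T-labelled cells of clusters 1 to 5, 0 genes passed by limma, with 1134 at an unadjusted p below 0.05, and 212 passed by the edgeR fit. The smallest limma adjusted p was that of Kcnk10, whose difference of effects was 1.68 ± 0.18 (limma adjusted p = 0.0591). For Tox the difference of effects against NK-labelled cells was 0.97 ± 0.20 (limma adjusted p = 0.797). For Gzma the difference of effects against those T cells was 4.18 ± 0.53 (limma adjusted p = 0.0649).

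**Figure D5:**
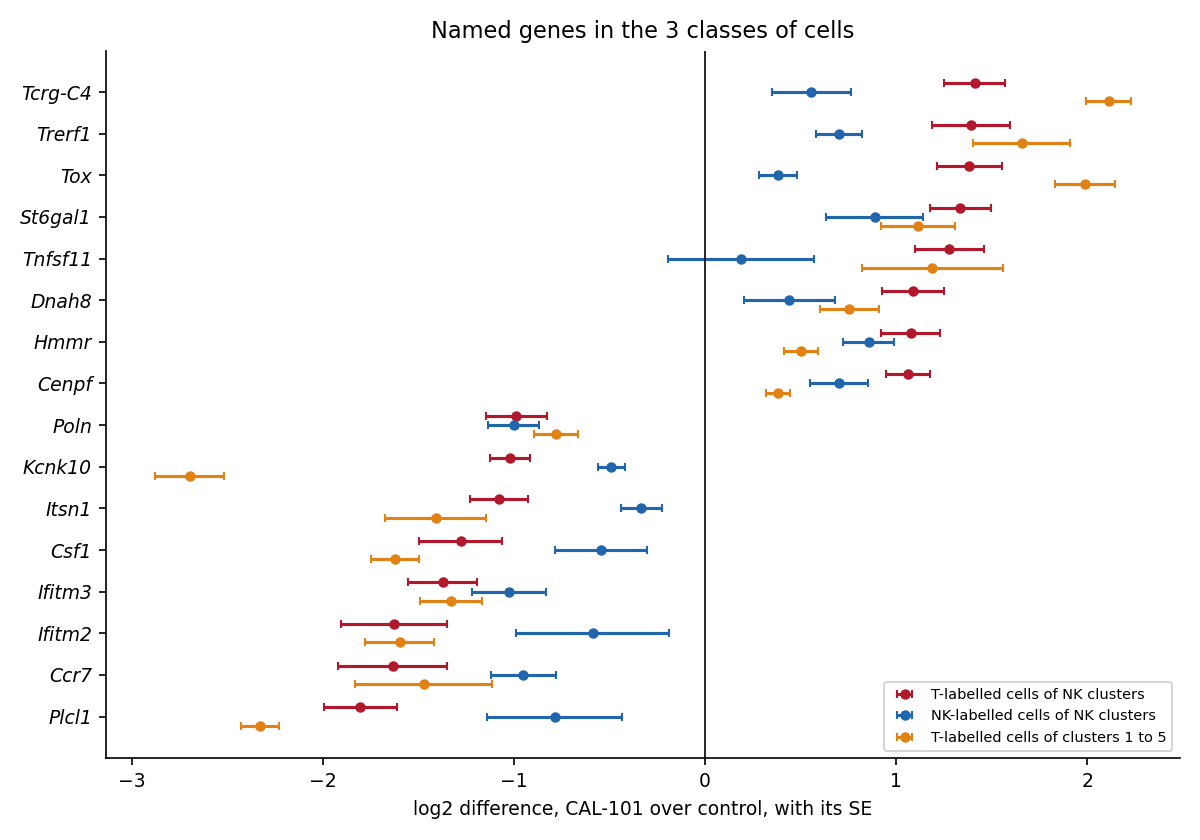
Log2 difference between CAL-101 and control mice, with its SE, of the 16 genes with the largest called changes in the members, shown in members (red), NK-labelled cells of the same clusters (blue) and T-labelled cells of clusters 1 to 5 (orange). Tox lies at 1.38 in members, 0.38 in NK-labelled cells and 1.99 in T-labelled cells of clusters 1 to 5.

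Of the antibodies, 2 (1.96% of the panel) differed between CAL-101 and control mice in the members by edgeR. CD357, the receptor GITR, took 2.58%, 2.76% and 2.71% of antibody UMIs in members of the CAL-101 mice and 4.28%, 4.58% and 4.20% in members of the control mice. The groups did not overlap, and it fell by 0.80 ± 0.11 on the log2 scale (edgeR adjusted p = 0.0237). CD45R_B220, an epitope of CD45 found on B cells and some NK cells, took 0.335%, 0.512% and 0.354% in members of the CAL-101 mice and 0.836%, 0.868% and 0.964% in members of the control mice, and fell by 1.24 ± 0.19 (edgeR adjusted p = 0.0237). Without the first CAL-101, the third CAL-101 or the second control mouse neither antibody passed (edgeR adjusted p for both = 0.126, 0.068 and 0.0892). CD357 also did not pass without the second CAL-101 mouse (0.0534), nor CD45R_B220 without the first or the third control mouse (0.082 and 0.126). CD45R_B220 also fell in NK-labelled cells, by 1.33 (edgeR adjusted p = 0.000775, the only antibody called there, 0.98% of the panel), and CD357 in T-labelled cells of clusters 1 to 5, by 1.31 (edgeR adjusted p = 0.00108, 18 antibodies called there, 17.6% of the panel, 8.82% each way). In NK-labelled cells CD357 differed by -0.61 and did not pass (edgeR adjusted p = 0.152). It took 1.90% to 2.23% there in CAL-101 mice and 2.76% to 3.32% in control mice. In the members CD8a (0.10, edgeR adjusted p = 0.821), CD49b (-0.41, 0.173), CD90.2 (-0.28, 0.454) and CD3 (1.11, 0.328) did not pass.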

How the data were processed

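Single cells of 6 mice were profiled, and 12 sample records hold the RNA and the surface protein of each mouse. The deposited matrices hold raw counts (UMIs) per cell of 32285 genes and the antibody panel. Per the file headers they come from Cell Ranger 7.1.0, and the submitters' processing notes name mm10 and Seurat. Cell labels and cluster numbers are the authors' deposited annotation. The annotation release, the filters on cells, how labels and clusters were made and whether antibodies entered them are not stated in any source used here. Gene symbols come from the files, and 32158 gene IDs matched the gene table.

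Members were taken by label and cluster. The members and the gene lists were chosen with earlier results of these data known. Counts were summed per mouse, class and cluster and expressed as CPM or as percent of antibody UMIs. CAL-101 and control mice were compared with edgeR 4.0.16 (TMM, filterByExpr, quasi-likelihood test, Benjamini-Hochberg threshold 0.05), classes with the mouse as a block, and differences of effects with limma 3.58.1 (prior count 2). DESeq2 1.42.0, other normalizations and filters, cell subsets and leaving out each mouse were alternatives. The edgeR and limma steps were tested on simulated data. Shares and depths were compared with exact permutation and sign-flip tests (scipy 1.17.1). P-values measure the spread between mice, 3 in each group. Wilson intervals cover counting error only. The smallest cell held 500 RNA UMIs (members 526) and no cell was left out of the sums.

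Named genes were the 8 largest called changes each way with at least 20 CPM and no overlap between groups, leaving out ribosomal, mitochondrial, Gm and Rik entries, up to 3 of each list by p, and Cd3e, Trbc2, Cd8a, Ncr1, Klrb1c, Gzma, Tcf7 and Tox. Between classes, 19 receptor and lineage genes and the 8 largest ratios each way at 20 CPM without overlap were eligible, and of the antibodies the 4 of the rule, CD4, NK-1.1, the receptor antibodies, isotypes and the 6 largest called each way.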

Additional observations from a re-analysis of the deposited data

Results flagged for a closer look

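Of 38 values tested for a sample far from the others of its set of 6 mice, 3 stood out, where chance flags about 1 in 20. In the members of the third CAL-101 mouse the CD3 antibody took 1.48% of antibody UMIs, and in the other 5 mice 0.299% to 0.489%. The gap to the nearest mouse was 0.839 of the whole range. In the members of the third CAL-101 mouse the isotype control antibody HTK888 and the CD1d antibody took 0.225% and 0.698% of antibody UMIs, against 0.0172% to 0.0297% and 0.195% to 0.276% in the other 5 mice. The members of the third CAL-101 mouse held the only member with over 20000 antibody UMIs, a cell of cluster 8. Without cells over that limit, CD3 and HTK888 differed between members and NK-labelled cells by 0.32 and -0.097 (edgeR adjusted p = 0.000801 and 0.304). The part of that cell in the flagged values was not tested. The CD9 antibody took 1.39% in the members of the second CAL-101 mouse, against 0.163% to 0.219% in the other mice (gap 0.954 of the range). The CD90.2 antibody took 2.99% in the members of the second control mouse, against 1.83% to 2.15% in the other mice (gap 0.724 of the range).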

How the results depend on the processing

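The 364 genes called between CAL-101 and control members became 789 without a filter on low counts (363 shared with the 364), 139 with a replicate block (138 shared), 96 in cluster 0 alone (61 shared), 202 in cluster 8 alone (144 shared), 165 without the tenth of cells with most RNA UMIs (136 shared), 151 in CD8a-low members (129 shared) and 105 to 474 without 1 mouse. The count stayed within 1.5 times under DESeq2 size factors (366), a filter of 10 CPM (363), the DESeq2 test (290) and without cells of high mitochondrial share or low depth (367). CAL-101 and control mice share replicate numbers, but nothing in the labels pairs them, the deviations of same-numbered mice correlated at -0.0764, -0.0746 and 0.0571, and not every mouse correlated best with its own number. The 2 antibodies called became 1 with isotype size factors, 8 by DESeq2, 0 with the replicate block, 4 without cells over 20000 antibody UMIs and 0 to 2 without 1 mouse. The 0 genes whose effects differed between members and NK-labelled cells became 6 by edgeR and stayed 0 without 1 mouse and with the replicate block.

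Between members and NK-labelled cells, 66 antibodies became 34 with isotype size factors, 42 in cluster 0 alone, 27 in CD8a-low cells of cluster 0, 47 with no replicate block and 38 to 65 without 1 mouse, 38 without the second CAL-101 mouse. Against T-labelled cells of clusters 1 to 5, 51 became 44 to 60 without 1 mouse. The depth difference of 171 UMIs became -18.2 without the second CAL-101 mouse (-18.2 to 449 over mice left out). The share differences ranged from -8.67 to -3.82 points for T-labelled cells and -1.16 to 2.54 points for NK-cluster cells without 1 mouse.

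The share of members with T and NK cell UMIs, 31.9% as a mean over mice, became 20.8% at 1000 UMIs per cell, 57.2% at 3000 and 81.3% unthinned. The share of members high in CD8a and CD49b, 1.88% as a mean over mice, became 13.6% at the 10th percentile, 0% at the 50th, 17.9% on antibody UMIs per cell and 25.1% on these at the 10th percentile. With CD90.2 in place of CD49b it was 5.38%, and 18.8% at the 10th percentile.

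On the log2 scale, the sign between CAL-101 and control members turned to -0.0076 for Ctla4 without a filter. It turned to -0.29 for Ccnb2, 0.15 for CD4 antibody and 0.0038 for NK.1.1 antibody in cluster 0 alone. It turned to 0.21 for Il2ra without the tenth of cells with most RNA UMIs. It turned to -0.20 for Ctla4, 0.0046 for Tigit, -0.00039 for Pdcd1, 0.18 for H2-Eb1, -0.034 for Cd3e, -0.086 for Trbc2 and 0.19 for Klrb1c in cluster 8 alone. It turned to -0.033 for CD8a antibody and -0.14 for CD8b antibody with isotype size factors. Without 1 mouse it turned for Ctla4 (-0.15 to 0.20), Ly6c2 (-0.069 to 0.32), H2-Eb1 (-1.27 to 0.24), CD8a antibody (-0.030 to 0.29), CD8b antibody (-0.097 to 0.23) and TCR.Bchain antibody (-0.25 to 0.078). On the log2 scale, the sign between members and NK-labelled cells turned to 0.0076 for CD4 antibody without cells over 20000 antibody UMIs. It turned to 0.44 for CD90.2 antibody and 0.14 for CD31 antibody in cluster 0 alone. It turned to 0.52 for CD90.2 antibody, 0.034 for CD4 antibody, 0.052 for NK.1.1 antibody and 0.17 for CD31 antibody in CD8a-low cells of cluster 0. Without 1 mouse it turned for CD4 antibody (-0.11 to 0.044). On the log2 scale, the sign between members and T-labelled cells of clusters 1 to 5 turned to 0.063 for CD3 antibody with no replicate block. It turned to -0.11 for CD4 antibody, -0.066 for TCR.Vg2 antibody and -0.10 for TCR.Vb8.1_8.2 antibody with isotype size factors. It turned to 0.11 for CD3 antibody, -0.0084 for CD4 antibody, -0.061 for TCR.Vg2 antibody and -0.13 for TCR.Vb8.1_8.2 antibody in cluster 8 alone.

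Of 34 named genes called, 28 were also called by DESeq2, 32 with the replicate block, 26 to 33 without 1 mouse, 28 in cluster 8 alone, 23 in CD8a-low members and 25 of 33 tested without the tenth of cells with most RNA UMIs, while in cluster 0 alone 13 of 30 tested were. Cluster 8, CD8a-low, per-cell antibody UMI, CD90.2 and edgeR interaction alternatives were chosen after seeing the data. With 3 mice a group, shares could not pass an exact test, and the 1791498 RNA UMIs of the smallest summed library limit genes of low level. Cluster 7 and cluster 9 were not fitted alone.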
